A study of Mus musculus with 12 samples.

Results

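A set of 10 genes of the ELAV, CELF, RBFOX and NOVA families of RNA-binding proteins was followed through the removal of enteric neurons from the mouse colon. The genes were chosen by symbol: Elavl1, Elavl2, Elavl3, Elavl4, Celf3, Celf4, Celf5, Rbfox1, Rbfox3 and Nova1, 10 of the 27179 genes in the table. All but Elavl1, which is expressed in nearly all cell types and served as the contrast, are known as neuron-enriched members of their families. RNA was sequenced from full-thickness pieces of colon cut at the ink mark, where diphtheria toxin had been delivered to the wall by microinjection. The 5 control libraries came from R26-iDTR animals without Cre (labelled Cre-Negative), and the 7 ablated libraries from BAF53b-Cre::R26-iDTR animals (labelled Cre-Positive). Both groups therefore carried the inducible diphtheria toxin receptor (iDTR) at the Rosa26 locus and had the same laparotomy, toxin and India ink, and they differed in the Cre transgene that switches the receptor on. Cre is driven by BAF53b, a chromatin remodelling subunit of neurons, so the receptor marks cells with a history of that promoter's activity and not a chosen class of enteric neuron. The labels give no age, sex or time since the toxin, and do not say whether each library is its own animal, so the p-values speak only to variation among these libraries, which may be technical.

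ELAV proteins (also called Hu proteins) bind U-rich and AU-rich stretches in mRNA, where they stabilise transcripts and alter splicing and polyadenylation. Antibodies to the neuronal forms HuB (Elavl2), HuC (Elavl3) and HuD (Elavl4) are the standard stain for the cell bodies of enteric neurons, while HuR (Elavl1) is found in most tissues. CELF proteins bind GU-rich RNA, RBFOX proteins bind the hexamer UGCAUG and NOVA proteins bind clusters of YCAY, and all of these set the choice of alternative exons. Rbfox3 encodes NeuN, a nuclear antigen widely used to mark neurons.

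Promoter windows are shown for the ELAV genes that differ most in their response below, the neuronal Elavl4 and Elavl3 and the broadly expressed Elavl1. Each runs from 250 bases before to 50 after a RefSeq start on GRCm38.p6, the mm10 assembly, and is written 5′ to 3′ along the gene's own strand with CpG dinucleotides in capitals.
Elavl4 (chr4:110351862-110352161, minus strand): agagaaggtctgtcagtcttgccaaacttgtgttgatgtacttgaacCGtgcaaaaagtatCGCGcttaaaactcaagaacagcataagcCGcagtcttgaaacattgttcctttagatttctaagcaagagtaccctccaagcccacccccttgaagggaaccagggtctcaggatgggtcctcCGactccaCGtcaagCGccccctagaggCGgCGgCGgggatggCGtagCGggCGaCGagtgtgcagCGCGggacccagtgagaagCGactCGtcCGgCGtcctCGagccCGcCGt
Elavl3 (chr9:22051974-22052273, minus strand): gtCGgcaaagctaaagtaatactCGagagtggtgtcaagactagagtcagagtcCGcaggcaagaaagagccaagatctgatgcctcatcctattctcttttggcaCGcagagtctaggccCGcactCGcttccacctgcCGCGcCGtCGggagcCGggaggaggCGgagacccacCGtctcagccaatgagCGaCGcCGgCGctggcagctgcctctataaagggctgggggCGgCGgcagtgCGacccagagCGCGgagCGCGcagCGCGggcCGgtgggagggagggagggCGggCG
Elavl1 (chr8:4325051-4325350, minus strand): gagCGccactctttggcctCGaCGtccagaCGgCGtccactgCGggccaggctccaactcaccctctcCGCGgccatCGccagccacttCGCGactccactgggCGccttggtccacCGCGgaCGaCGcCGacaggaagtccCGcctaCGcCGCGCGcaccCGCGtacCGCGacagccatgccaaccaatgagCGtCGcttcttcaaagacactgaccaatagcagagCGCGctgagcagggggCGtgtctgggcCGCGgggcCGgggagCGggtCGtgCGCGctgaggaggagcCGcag

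These windows hold 23, 29 and 39 CpG, against a median of 7 over 27025 windows, 1 per gene at its most upstream start. A window was found for 9 of the 10 members (all but Celf4), and those of Celf3, Rbfox1 and Rbfox3 hold 4, 3 and 4 CpG. Over the 8 neuron-enriched members with a window the count ran from 3 to 29, below that of Elavl1. The letters CAGCACC, a core of the element bound by the neuronal gene silencer REST, were in none of the 9 windows on either strand and in 7.10% of all windows. GGACAG, the other core of that element, was in 1 of the 9 (Elavl2) and in 22.1% of all windows. The motifs can overlap, since GGACAG ends with the letters CAG that begin CAGCACC, and a match or its absence is a description of these windows.

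Levels are TPM, in which the authors scaled each gene to its length and each library to a common total, so members can be compared with each other. Depth was 13.4 to 26.9 M reads recovered from the TPM. Ablated 1 was the shallowest library and had 18.7% of its reads on mitochondrial genes, where the other 11 had 3.56% to 10.4%. Actl6b, which encodes BAF53b, stood at 0.971 ± 0.372 TPM in control (SD, n = 5) and 0.447 ± 0.224 in ablated (n = 7) with an adjusted p of 0.222, and Hbegf, the mouse form of the toxin's receptor, at 11.8 ± 3.63 and 11.3 ± 3.36 (limma adjusted p = 0.980). Of 10 neuron markers, 10 passed as lower by limma, as 1.01% of all genes tested did. Their summed level was 98.4 to 235 TPM in control and 19.05 to 38.4 in ablated. The marker list was chosen with earlier results of these data known, so the count is a description and not a test. Epithelium and smooth muscle were both present in all libraries. The 4 epithelial markers summed to 5703 to 6999 TPM in control and 4106 to 8801 in ablated. The 5 smooth muscle markers summed to 5207 to 7972 and 4964 to 15726. In whole tissue, fewer cells of a type and less RNA per cell cannot be told apart.

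In control colon the members spanned a wide range of levels. Elavl1 was the most abundant, at 19.6 ± 2.09 TPM (SD, n = 5), above each other member in 5 of 5 libraries. Celf3 (7.51 ± 1.91), Celf5 (5.68 ± 0.860) and Celf4 (5.24 ± 0.924) followed, and their ranges overlapped. Elavl4 came next at 3.26 ± 1.24, and its lowest library lay above the highest of Elavl3 (1.33 ± 0.409). Nova1 (0.834 ± 0.194), Rbfox1 (0.743 ± 0.353) and Rbfox3 (0.534 ± 0.181) overlapped in range. Elavl2 was lowest at 0.189 ± 0.135, with 55 reads over the 5 libraries. The order in ablated colon was again led by Elavl1, Celf3, Celf5 and Celf4, but Elavl4, at rank 5 in control, was at rank 8. Rbfox3, just above it at 0.414 against 0.393 TPM, was higher in 4 of 7 libraries, and without ablated 1 Elavl4 was at rank 7, at 0.310 TPM with Rbfox3 at 0.242.

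Elavl4 alone of the members passed the test across all genes. The test covered 16164 genes that reached 0.5 TPM in 5 or more libraries; 231 passed an adjusted p of 0.05 (1.43%), 163 as lower in ablated (1.01%) and 68 as higher (0.421%). Among the 7 members tested, 1 passed as lower and none as higher. The log2 fold change was negative for each of the 7, with Nova1 at -0.03 and a higher mean TPM in ablated. Over all genes tested 44.3% were negative, with a median of 0.03. The median of the 7 was -0.26, which is the value of Elavl1, the contrast gene. Of the neuron-enriched members, Elavl4, Celf4 and Elavl3 were at -2.07, -0.98 and -0.92, and Celf3 and Celf5 at -0.17 and -0.11. Rbfox1, Rbfox3 and Elavl2 lay below the minimum, so they are described from a fit of all 22842 genes above 0 in any library, in which 1.2% passed as lower, Elavl4 and Rbfox1 among them. A member can enter the first fit through its control libraries alone, so the count over the 7 is not a count over all 10.

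Elavl4 encodes HuD, the ELAV protein best known for stabilising mRNAs of growing neurites. The gene spans chr4:110203722-110351909 on the minus strand of mm10, and none of its exonic bases is shared with another annotated gene. It stood at 2.168, 4.81, 4.26, 2.02 and 3.03 TPM in control 1 to 5, and at 0.110 (lowest), 0.444 (median) and 0.891 (highest) in the 7 ablated libraries. The groups did not overlap, with the lowest control 2.27-fold above the highest ablated library; groups separated in that direction for 1.55% of the genes tested. The mean fell 8.30-fold to 0.393 ± 0.280 TPM (n = 7), 12.05% of control. The log2 fold change of TPM + 0.5 was -2.07 (SE 0.26, 95% interval -2.63 to -1.51, limma adjusted p = 0.00086). It was covered by 903 reads in control and 135 in ablated, and Elavl4 passed under each of 23 alternative settings. Without ablated 1 the difference was 10.5-fold (log2 fold change -2.18, limma adjusted p = 0.000849). In the authors' deposited table its log2 fold change was -3.12, with a false discovery rate of 0.00279, where 0.916% of genes were lower at a rate under 0.05.

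**Figure D1:**
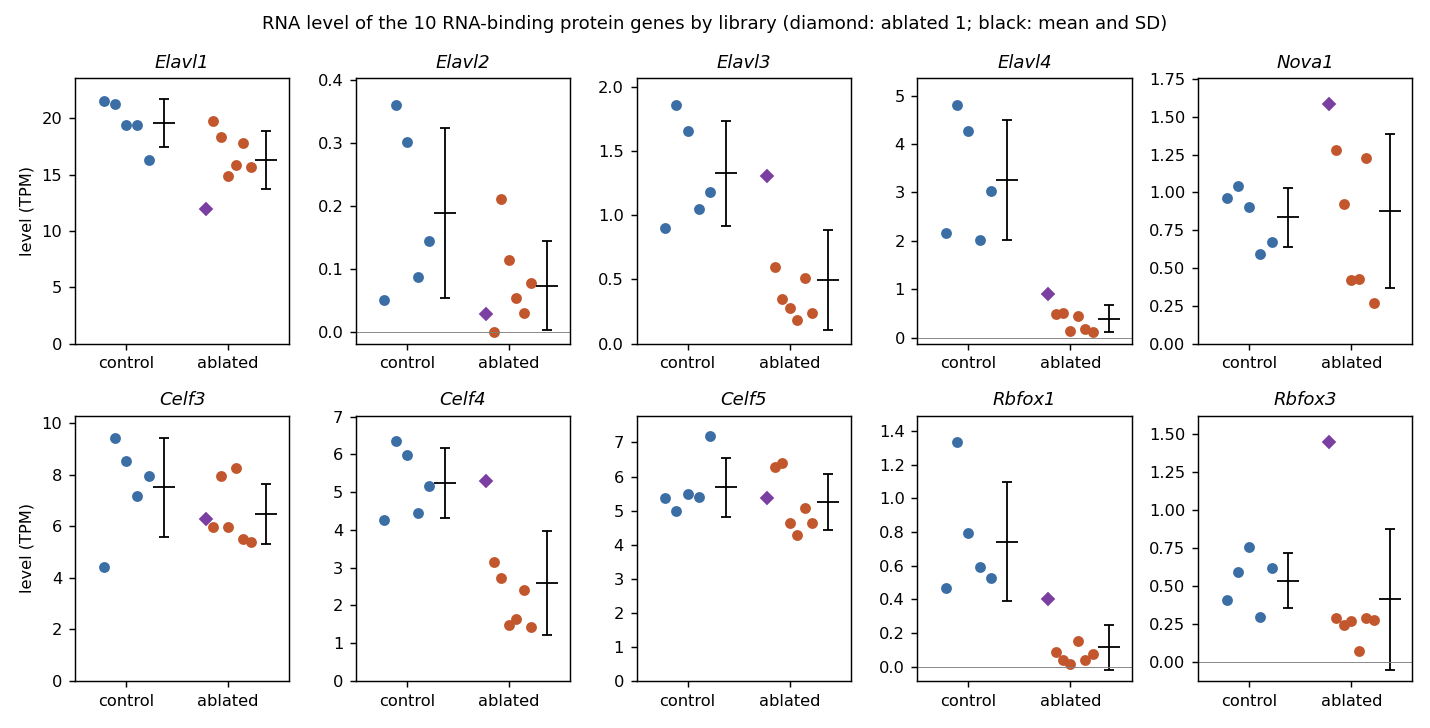
Level in TPM (y axis, linear, a separate scale for each gene) of the 10 genes in 5 control (blue) and 7 ablated (orange) libraries, with ablated 1 as a purple diamond and the group mean and SD in black beside the points. Elavl4 and Rbfox1 are the 2 genes whose groups do not overlap, as for 1.48% of the 22842 genes above 0, and ablated 1 is the highest ablated library for Elavl3, Elavl4, Celf4, Rbfox1, Rbfox3 and Nova1.

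Elavl3 encodes HuC, the form expressed across most mature neurons. Its control libraries were at 0.899, 1.86, 1.65, 1.05 and 1.18 TPM, and its ablated libraries at 0.182 (lowest), 0.350 (median) and 1.31 (highest). Of the 7 ablated libraries 6 lay below the lowest control, and ablated 1 lay within the control range. The log2 fold change was -0.92 (SE 0.24, means 1.33 ± 0.409 and 0.495 ± 0.388), which did not pass (limma adjusted p = 0.0988). Without ablated 1 it was -1.08, with 0.359 ± 0.162 TPM in 6 libraries, 27.1% of control, and Elavl3 passed (limma adjusted p = 0.0113), in a fit where 1.25% of genes passed as lower. Leaving out any other library did not give a pass. In the authors' deposited table Elavl3 had a log2 fold change of -1.46 and a false discovery rate of 0.193.

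Elavl2 encodes HuB, which precedes the other neuronal forms in many developing neurons. It was at 0.0508, 0.360, 0.301, 0.0873 and 0.145 TPM in control and at 0 (lowest), 0.0547 (median) and 0.210 (highest) in ablated. The groups overlapped, and Elavl2 did not pass in the fit with no minimum (log2 fold change -0.25, limma adjusted p = 0.4997). It was covered by 55 reads in control and 29 in ablated. Ablated 2 had no Elavl2 read.

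Elavl1, which encodes HuR, stood at 21.5, 21.2, 19.4, 19.4 and 16.3 TPM in control and at 11.96 (lowest), 15.8 (median) and 19.7 (highest) in ablated. The ablated mean of 16.3 ± 2.57 was 83.3% of control, the groups overlapped, and the log2 fold change of -0.26 (SE 0.13) did not pass (limma adjusted p = 0.449). Its exons share 204 bases with the chemokine gene Ccl25 on the opposite strand, 1.97% of its exonic bases. The 3 neuronal ELAV genes together made up 19.4 ± 5.73% of all ELAV transcripts in control and 5.78 ± 4.49% in ablated, with 15.7% in ablated 1 as the highest ablated library and 12.7% as the lowest control.

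Both RBFOX members were expressed at low levels. Rbfox1, a splicing regulator of neurons, heart and skeletal muscle, was at 0.465, 1.33, 0.793, 0.595 and 0.527 TPM in control. In ablated colon it was at 0.0159 (lowest), 0.0770 (median) and 0.400 (highest), so that all 7 libraries lay below the lowest control. In the fit with no minimum it fell, with a log2 fold change of -0.99 (SE 0.17, limma adjusted p = 0.0121) and means of 0.743 ± 0.353 and 0.117 ± 0.133, a 6.36-fold difference. Without ablated 1 the difference was 10.7-fold (log2 fold change -1.09, limma adjusted p = 0.00364). Leaving out any library, or adding 0.1 or 1 in place of 0.5, kept it past the threshold in that fit (adjusted p up to 0.0426). The authors' deposited table gives a log2 fold change of -2.76 and a false discovery rate of 0.0313. These values rest on few reads, 253 in the control libraries and 46 in the ablated. Markers of skeletal muscle, where Rbfox1 is also expressed, had a summed level of 19.4 to 38.1 TPM in control and 37.8 to 134 in ablated; all 5 were tested and none passed by limma (2 at an unadjusted p under 0.05, 0 by voom), and their part in the level of Rbfox1 was not tested.

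Rbfox3, which encodes NeuN, was at 0.408, 0.591, 0.755, 0.298 and 0.617 TPM in control and at 0.0731 (lowest), 0.278 (median) and 1.45 (highest) in ablated. Ablated 1 was the highest of all 12 libraries, and the other 6 ablated libraries lay below the lowest control, the nearest of them at 0.292 TPM against 0.298. Rbfox3 did not pass in the fit with no minimum, with a log2 fold change of -0.27 (SE 0.25, adjusted p = 0.803 by limma). Without ablated 1 it was -0.47 (SE 0.13) and still did not pass (limma adjusted p = 0.108), with 0.242 ± 0.0843 TPM in 6 libraries, 45.3% of control.

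Among the CELF members the difference between groups was largest for Celf4. This gene, a regulator of mRNA stability and translation in excitatory neurons, was at 4.26, 6.35, 5.99, 4.43 and 5.16 TPM in control and at 1.42 (lowest), 2.41 (median) and 5.30 (highest) in ablated. Of the 7 ablated libraries 6 lay below the lowest control and ablated 1 lay inside the control range. The means were 5.24 ± 0.924 and 2.59 ± 1.36, and the log2 fold change of -0.98 (SE 0.26) did not pass (limma adjusted p = 0.0974). Without ablated 1 Celf4 was at 2.14 ± 0.723 in 6 libraries, 40.9% of control, and passed with a log2 fold change of -1.15 (limma adjusted p = 0.0103). With any other library left out Celf4 did not pass. Celf4 was covered by 1768 reads in control and 1137 in ablated, many more than the RBFOX members.

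Celf3, a splicing regulator of the nervous system, was at 4.43, 9.44, 8.56, 7.195 and 7.94 TPM in control and at 5.41 (lowest), 5.99 (median) and 8.27 (highest) in ablated. The ablated range lay wholly inside the control range, and the log2 fold change was -0.17 (SE 0.18, 95% interval -0.56 to 0.21, limma adjusted p = 0.806). Celf5, a close relative of Celf4 with a brain-enriched pattern, was at 5.38, 4.98, 5.49, 5.39 and 7.18 TPM in control and at 4.30 (lowest), 5.08 (median) and 6.40 (highest) in ablated. Its log2 fold change was -0.11 (SE 0.14, 95% interval -0.40 to 0.18, limma adjusted p = 0.860). The intervals of both genes exclude a fall as large as that of Elavl4. Celf5 shares 543 of its exonic bases, 8.14%, with the antisense gene Gm16105, and Celf3 shares 74, 1.35%, with Riiad1 on the opposite strand. The kit keeps strand, but whether the counting used it is not given in the sources used here. Strand cannot separate 2 further overlaps, which lie on the same strand. Elavl3 shares 256 exonic bases, 3.72%, with Gm49318, and Nova1 shares 310, 3.54%, with Gm33869.

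Nova1, a splicing regulator of neurons named for an autoantigen of a paraneoplastic disorder, was at 0.960, 1.05, 0.904, 0.591 and 0.672 TPM in control, with a mean of 0.834 ± 0.194. Its ablated libraries, with a mean of 0.877 ± 0.510, were at 0.271 (lowest), 0.924 (median) and 1.58 (highest). They spread to both sides of the control range, with 3 below the lowest control and 3 above the highest. The log2 fold change was -0.03 (SE 0.26, 95% interval -0.59 to 0.53, limma adjusted p = 0.986), and it was positive in 7 of 22 alternatives, quantile scaling among them (0.06). Without ablated 1 it was -0.15 (limma adjusted p = 0.811). In the authors' deposited table the log2 fold change of Nova1 was 0.05, with a false discovery rate of 1. In the authors' deposited table that of Celf4 was -1.04 (rate 0.179), and Elavl1, Elavl2, Celf3, Celf5 and Rbfox3 had rates of 0.422 to 0.971.

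**Figure D2:**
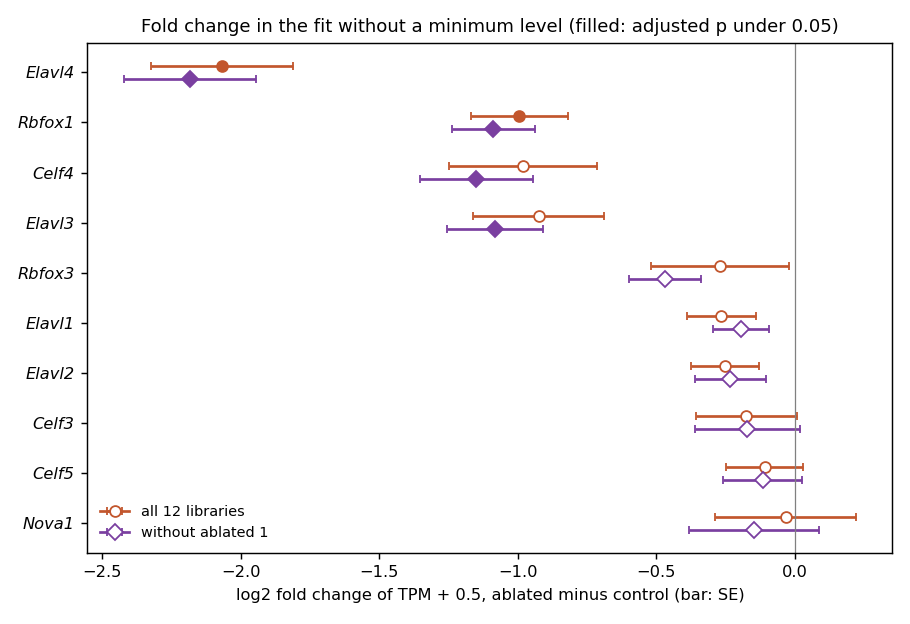
Log2 fold change of TPM + 0.5 (x axis, ablated minus control) for the 10 genes (y axis) in the fit of all genes with no minimum level, with all 12 libraries (orange circles) and without ablated 1 (purple diamonds); bars are SE and filled symbols have an adjusted p under 0.05. Elavl4 and Rbfox1 are filled in both fits, and Celf4 and Elavl3 without ablated 1, a fit in which 323 of 22550 genes (1.43%) passed as lower.

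Whether a neuron-enriched member moved differently from a broadly expressed gene of its own family was tested within each library, as the log2 ratio of TPM + 0.5. Pairs with Elavl1, Celf1 and Rbfox2 were tested by an exact, two-sided permutation of the group labels, with p-values adjusted over the 8 pairs. Celf1, a broadly expressed regulator of splicing and decay, was at 32.5 ± 3.91 TPM in control and 33.8 ± 7.53 in ablated, and Rbfox2, the broadly expressed RBFOX gene, at 12.3 ± 1.97 and 13.2 ± 2.03. Relative to Elavl1, Elavl4 changed by -1.80 (exact permutation p = 0.00126, the smallest this design allows, adjusted p = 0.0101), with all 7 ablated libraries below every control. Rbfox1 relative to Rbfox2 changed by -1.10 (exact permutation adjusted p = 0.0253), with 6 of 7 ablated libraries below every control. That call was lost with 1 in place of 0.5 added (adjusted p = 0.0556), without control 2 (0.0727) and without ablated 6 or 7 (both 0.0519).

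The other 6 pairs did not pass over all libraries. Celf4 relative to Celf1 changed by -1.01 (exact permutation adjusted p = 0.118) and Elavl3 relative to Elavl1 by -0.66 (exact permutation adjusted p = 0.119). Without ablated 1 these became -1.25 (exact permutation adjusted p = 0.0139) and -0.89 (exact permutation adjusted p = 0.00577). Rbfox3 relative to Rbfox2 then passed as well, at -0.64 (exact permutation adjusted p = 0.0139) from -0.37 over all libraries (0.539). Ablated 1 was the highest ablated library for Elavl3, Celf4 and Rbfox3, so leaving it out removed their highest ablated value. Each of these pairs passed in 1 of 16 alternatives, the one without ablated 1. Celf3 and Celf5 relative to Celf1 changed by -0.20 and -0.14 (exact permutation adjusted p = 0.604 and 0.645), and Elavl2 relative to Elavl1 by 0.01 (0.937). Every Elavl2 value lay below the added 0.5 TPM (highest 0.360), so its ratio could move little and cannot show whether Elavl2 fell as Elavl1 did. The ablated mean TPM was 39.0% of control for Elavl2 and 83.3% for Elavl1.

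**Figure D3:**
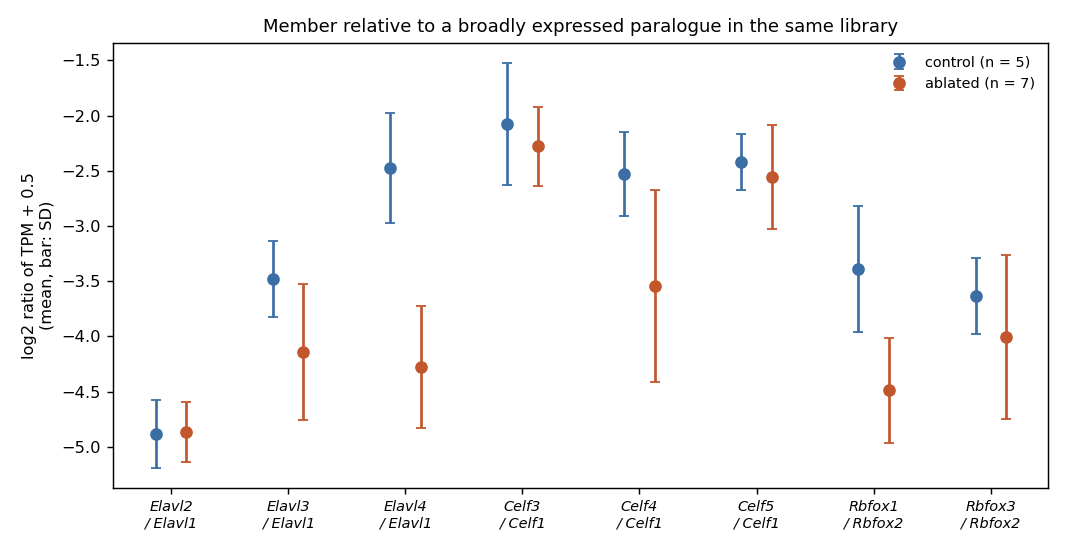
Log2 ratio of TPM + 0.5 (y axis) of each neuron-enriched gene to a broadly expressed gene of the same family in the same library, as mean and SD over 5 control (blue) and 7 ablated (orange) libraries. The ratio of Elavl4 to Elavl1 falls from -2.47 to -4.28 and that of Rbfox1 to Rbfox2 from -3.39 to -4.49, while Celf3 and Celf5 move by less than their SD.

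Members of the same family can also be set against each other in the same library, in 4 pairs chosen after their values were seen and therefore described without a test. These are ratios of TPM + 0.5, which shrinks the ratios of genes at low levels. The log2 ratio of Elavl4 to Elavl3 was 1.01 ± 0.19 in control (n = 5) and -0.14 ± 0.37 in ablated (n = 7), with all 7 ablated libraries below every control. Celf4 stood close to Celf5 in control, at a log2 ratio of -0.11 ± 0.32, and at -0.98 ± 0.47 in ablated, with 6 of 7 below every control. The ratio of Celf4 to Celf3 was -0.46 ± 0.23 and -1.26 ± 0.61, and that of Rbfox1 to Rbfox3 was 0.24 ± 0.35 and -0.48 ± 0.38, each again with 6 of 7 below every control.

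The level of a member relative to control differed among the ablated libraries. Ablated 1 was the highest of the 7 for 6 members (Elavl3, Elavl4, Celf4, Rbfox1, Rbfox3 and Nova1) and the lowest for Elavl1. It held Elavl3 at 98.6% of the control mean, Celf4 at 101% and Rbfox3 at 271%, but Elavl4 at 27.3%. Its summed neuron markers were at 16.2% of the control mean, rank 4 of the 7 ablated libraries, whose range was 11.6% (ablated 4) to 23.5% (ablated 2). Ablated 1 also had the lowest summed epithelial markers (4106 TPM) and smooth muscle markers (4964 TPM) of the 12 libraries beside its high mitochondrial share; the part of these in its member levels was not tested. At the other end, ablated 7 was the lowest for Elavl4, Celf3, Celf4 and Nova1, with Elavl4 at 3.37% of the control mean.

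**Figure D4:**
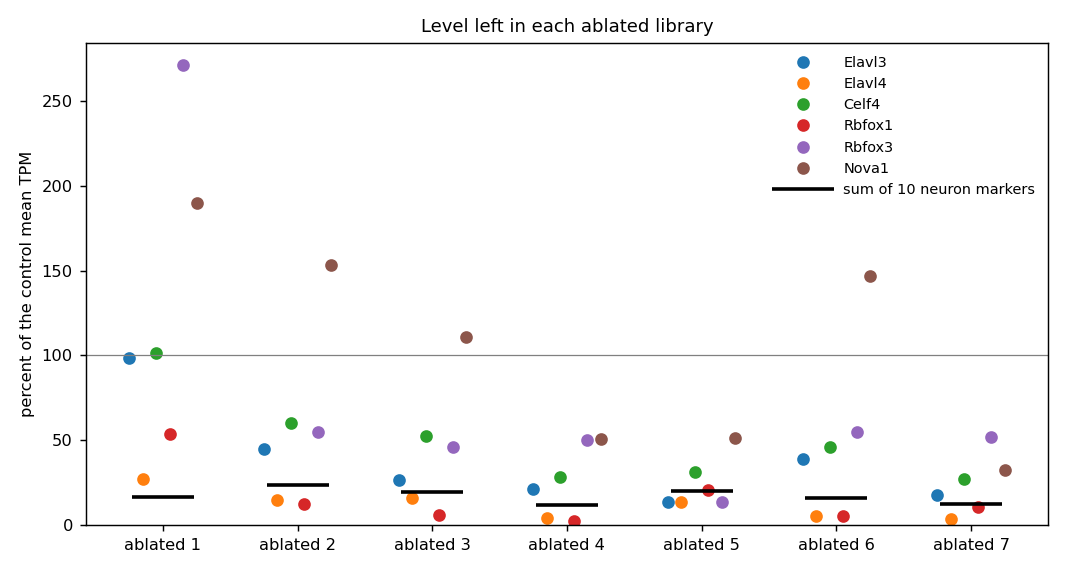
Level of 6 genes in each of the 7 ablated libraries (x axis) as a percent of the control mean TPM (y axis, linear), with the sum of 10 neuron markers as a black bar. In ablated 1, Elavl3, Celf4, Rbfox3 and Nova1 stand at 98.6% to 271% while the neuron markers stand at 16.2%.

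Other RNA-binding proteins were set beside the members, against 1.43% of all genes tested that passed. Of 14 further RNA-binding proteins listed as neuronal, 9 were tested: Ptbp2, Msi1, Khdrbs3, Celf6, Cpeb1, Cpeb3, Pcbp3, Rbms3 and Rbm24. The share of their reads that comes from neurons was not tested. Among the 9, 1 passed, the poly(C)-binding protein gene Pcbp3. It fell from 5.61 ± 0.931 to 2.93 ± 0.399 TPM (log2 fold change -0.83, limma adjusted p = 0.0068). Its groups did not overlap, and groups separated in that direction for 1.55% of all genes tested. The median log2 fold change of the 9 was -0.16, with 7 negative and 2 at an unadjusted p under 0.05, which 11.8% of all genes tested reached. Celf6, the remaining neuron-enriched CELF gene, was at 3.28 ± 0.975 and 2.08 ± 0.320 (limma adjusted p = 0.292, and 0.0338 without control 1, its lowest control library). Nova2, the second NOVA gene, lay below the minimum at 0.435 ± 0.0466 and 0.522 ± 0.185, and Celf2, expressed in neurons, muscle and lymphocytes, was at 5.32 ± 1.15 and 6.20 ± 2.78 (limma adjusted p = 0.942). Of 28 broadly expressed RNA-binding proteins all were tested and none passed by limma (3 at an unadjusted p under 0.05, 0 by voom), with 11 negative and 17 positive log2 fold changes and a median of 0.01. The 2 with the smallest p were Mbnl3 (-0.30, limma adjusted p = 0.283) and Msi2 (-0.37, limma adjusted p = 0.354). For Msi2, too, all 7 ablated libraries lay below the lowest control.

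Of 11 mRNAs known from other systems to be bound by neuronal ELAV proteins, 10 were tested and 1 passed. This was Gap43, the growth cone protein whose mRNA is a classic target of HuD, which fell from 16.3 ± 5.55 to 5.50 ± 2.29 TPM (log2 fold change -1.51, limma adjusted p = 0.014, and 0.0556 and 0.0537 without control 2 and control 3). The median of the 10 was -0.19, with 7 negative, and Gap43 is itself a neuronal transcript. At an unadjusted p under 0.05 there were 6 of the 10, against 11.8% of all genes tested. Bdnf, the neurotrophin gene, was at 0.190 to 0.760 TPM in control and at 0.568 (lowest), 1.83 (median) and 11.4 (highest) in ablated, with 6 of 7 ablated libraries above every control. It did not pass over all genes (log2 fold change 1.59, limma adjusted p = 0.163).

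Enteroendocrine cells of the epithelium share part of the neuronal programme, and their markers were present in all libraries. The summed level of the 8 markers was 137 to 193 TPM in control and 180 to 232 in ablated. The serotonin enzyme gene Tph1 rose from 5.95 ± 1.11 to 11.7 ± 1.64 TPM and the calcium-binding protein gene Scgn fell from 9.12 ± 2.71 to 4.01 ± 1.23 (limma adjusted p = 0.0041 and 0.026), while the other 6 did not pass. The call of Scgn was lost when control 2, 3 or 4, or ablated 6 or 7, was left out (limma adjusted p up to 0.0969). It was also lost with the mean level of the 8 markers as a covariate (limma adjusted p = 0.0622). That mean includes Scgn itself, so this fit cannot separate Scgn from the covariate. With that covariate Elavl4 passed (log2 fold change -2.02, limma adjusted p = 0.00652). The share of the Celf3 and Celf5 reads that comes from such cells was not tested. Glial markers summed to 12.2 to 17.8 TPM in control and 8.67 to 11.5 in ablated, with none of 5 passing by limma (3 at an unadjusted p under 0.05, 2 by voom); their part in the member levels was not tested either.

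Among tested genes other than the members, those whose profile over the 12 libraries was most like that of Elavl4 were Tmem59l, Syt1 and Fgf13. Genes without a symbol, or named only by a Gm number or a Rik ending, were left out of this ranking. The measure was the root mean square difference between centred log2 values, which was 0.26, 0.27 and 0.28 log2 units. Tmem59l, a transmembrane protein gene, was at 3.04 ± 1.25 TPM in control and 0.506 ± 0.173 in ablated. Syt1, the calcium sensor of vesicle release, was at 4.35 ± 1.88 and 0.394 ± 0.157, and Fgf13, an intracellular partner of sodium channels, at 3.09 ± 1.08 and 0.469 ± 0.209. Syt1 is also 1 of the 10 neuron markers.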

How the data were processed

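Colon RNA was measured in 12 libraries, 5 control and 7 ablated, grouped by the labels' titles. Per the labels' protocols, RNA was extracted with Trizol, selected for poly(A) and made into directional libraries. Per the submitters' processing notes, bcl2fastq 2.17, HISAT and featureCounts were used with mm10; other versions are not given in the sources used here. The deposited unit is TPM per gene, made by the authors, and the 12 per-sample files are identical to the series table. The authors' deposited table also gives an edgeR comparison, with a log2 fold change, a p-value and false discovery rate and, as a score, an F statistic for each gene.

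Log2(TPM + 0.5) was fitted with limma 3.58.1 (R 4.3.3, trended eBayes), ablated minus control, for 16164 genes that reached 0.5 TPM in 5 or more libraries, with Benjamini-Hochberg adjustment and a threshold of 0.05. Log2 fold changes on this scale understate the change of low genes. Because the unit is TPM, no count test was run; whole reads were recovered (a length of 20 to 30000 bases that makes all values of a gene whole, within 0.05 read, found for 22840 of 22842 genes above 0) to state depth and for voom as an alternative. Pairs of genes were compared by exact permutation in Python 3.11.15 with numpy 2.4.6. The fit was tested on simulated data. The members and lists were chosen with earlier results of these data known. Named genes are the members, other members of their families, Actl6b and Hbegf, up to 4 called genes (or 2 where none passed) of each list, and the 3 nearest profiles of a called member; Bdnf, Tph1 and Scgn were named after their values were seen. Positions and exon overlaps are from GENCODE M21 (mm10), promoters from RefSeq. Alternatives changed the constant, minimum, scaling, weights, covariates, block and libraries.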

Additional observations from a re-analysis of the deposited data

Results flagged for a closer look

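A single library stood apart from the others of its group by Dixon's criterion in 6 of 30 groups tested (10 members and 5 relatives in 2 groups each), where chance flags about 1 in 20. Ablated 1 was high for 3 members: Elavl3 at 1.31 TPM with the next ablated library at 0.594, Rbfox1 at 0.400 with the next at 0.152, and Rbfox3 at 1.45 with the next at 0.292. Control 5 was high for Celf5, at 7.18 TPM with the next control at 5.49. Celf6 was low in control 1, at 1.59 TPM with the next at 3.34, and in ablated 6, at 1.41 TPM with the next at 2.04.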

How the results depend on the processing

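Elavl4 kept its direction and passed under each of 23 alternatives, with log2 fold changes of -3.41 to -1.59. The count of genes called, 231 (163 lower), became 693 (359) with the mitochondrial share as a covariate, 349 (273) with no minimum, 1092 (438) with a weight per library, 89 (74) with the replicate block (which leaves out ablated 6 and 7), and 128 to 328 (105 to 202) with each library left out. It was 128 (105) without control 2 and 137 (106) without control 3. The 1 member called lower became 3 (Elavl4, Elavl3 and Celf4) with the mitochondrial covariate, weights, or voom on recovered reads, 2 with no minimum, and 1 to 3 with each library left out. Signs reversed for 5 results, none of which passed. Nova1 was 0.056 with quantile scaling, 0.032 with the replicate block, and -0.15 to 0.091 with libraries left out. Elavl2 relative to Elavl1 was -0.42 with a constant of 0.1 and -0.096 to 0.093 with libraries left out. Without 1 library at a time, Hbegf ranged from -0.25 to 0.071, Celf1 from -0.030 to 0.098 and Celf2 from -0.025 to 0.25. Hbegf was 0.018 with the enteroendocrine covariate and 0.0095 with the replicate block, Celf1 was -0.038 with quantile scaling, and Celf2 was -0.051 with the enteroendocrine covariate and -0.15 with weights; the cause was not tested. The replicate numbers did not pair the libraries (same-number correlations from -0.27 to 0.36, 1 of 5 best with its own number). With the replicate block Elavl4 still passed (-1.90, limma adjusted p = 0.0316) and Pcbp3 and Tph1 did not (0.205 and 0.109). Blocking and the smaller number of libraries cannot be told apart in that fit. The pair test with the block could not pass, since 5 pairs allow no exact p below 0.0625. Elavl2, Rbfox1 and Rbfox3 had the fewest control reads of the members, and depth limits them most: 1 read per kilobase was worth 0.0697 to 0.129 TPM.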
